A study of Homo sapiens with 6 samples.

Results

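The 37 genes of the human mitochondrial genome were followed in SW480 cells, an established line from a human colorectal adenocarcinoma. They were taken from the gene-level count tables as every gene whose symbol starts with MT-, which gave 37 of 63677 listed identifiers, made up of 13 protein genes, 2 rRNA genes and 22 tRNA genes. SW480 cells had been transduced with a lentiviral vector that expresses either green fluorescent protein (GFP, the control) or POU5F1B, a retrogene copy of the pluripotency factor gene POU5F1, when doxycycline is present. There were 3 GFP and 3 POU5F1B libraries of polyadenylated RNA, all after 72 h in 1 µg/mL doxycycline, and the transduced cells of both groups had been selected with puromycin. The labels do not say whether replicates came from separate cultures, so each p-value measures only the spread between these libraries, which may be technical.

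The mitochondrial genome is a small circle that is transcribed on both strands into long precursors. Most genes are read from the heavy-strand promoters, and MT-ND6 and several tRNAs are read from the light-strand promoter in the other direction. The precursors are cut mainly at the tRNAs that stand between the coding genes. Most of the released mRNAs and, to a lesser extent, the rRNAs receive short poly(A) tails. The mRNAs encode core subunits of the respiratory chain and of ATP synthase, and the rRNAs and tRNAs serve the mitochondrial ribosome that translates them.

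A library held between 10767947 and 12787637 counts. POU5F1B itself had 6, 5 and 1 counts in GFP replicates 1, 2 and 3. It had 15027, 11393 and 1458 counts in POU5F1B replicates 1, 2 and 3. POU5F1B replicate 3 thus had far fewer than the rest of its group, and the fits without GFP replicate 3 keep it. GFP replicate 3 stood apart from GFP replicates 1 and 2, and its values are therefore given separately below. That choice rests on values of these same data, so p-values of fits without GFP replicate 3 are descriptive. Those fits compare the POU5F1B libraries with GFP replicates 1 and 2 only. The summed level of 8 colorectal epithelial markers was 6872 and 6365 CPM, counts scaled to a common library size, in GFP replicates 1 and 2. It was 9586 CPM in GFP replicate 3 and 7908 to 8931 CPM in POU5F1B cells. All 8 had counts in at least 1 library. CDH17 had only 0, 0 and 77 counts in the GFP replicates and 0, 1 and 24 in the POU5F1B replicates. The summed level of 6 fibroblast markers was 171 and 148 CPM in GFP replicates 1 and 2, 27.4 CPM in GFP replicate 3 and 13.4 to 22.6 CPM in POU5F1B cells, with 1 of the 6 at 0 in every library. Both marker sums thus divide the libraries into GFP replicates 1 and 2 on one side and the other 4 on the other. The sums came mostly from KRT8 and KRT18 and from COL1A1 and PDGFRB. These genes, EPCAM, KRT19, CDH1, VIL1 and COL1A2 each showed that division, whereas CDX2, CDH17, LUM and DCN did not. CDX2 had 329, 256 and 381 counts in the GFP replicates and 208, 158 and 445 in the POU5F1B replicates. LUM had 0, 0 and 34 counts and 0, 0 and 5 counts in the same order. CDX2, CDH17, LUM and DCN were each highest in replicate 3 of both groups, DCN at only 3 and 1 counts. Leukocyte markers summed to 1.30 to 4.75 CPM and endothelial markers to 1.22 to 6.53 CPM.

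The 5 stretches below of the reference mitochondrial chromosome (GRCh37, 16569 nt, plus strand) are printed because they mark how neighboring genes share or divide their sequence, which decides what a count of each gene can tell. The first is chrM:8507-8592, where the capitals are the 46 bases that belong to both MT-ATP8 and MT-ATP6. The second is chrM:10740-10786, where the capitals are the 7 bases shared by MT-ND4L and MT-ND4. In the third, chrM:3190-3239, the end of MT-RNR2 runs without a gap into MT-TL1, whose first 10 bases are in capitals. In the fourth, chrM:15868-15953, MT-CYB is followed directly by MT-TT, in capitals. In the fifth, chrM:14129-14168, the end of MT-ND5 meets the end of MT-ND6, whose last 20 bases are in capitals and are read from the minus strand.
MT-ATP8 and MT-ATP6 overlap: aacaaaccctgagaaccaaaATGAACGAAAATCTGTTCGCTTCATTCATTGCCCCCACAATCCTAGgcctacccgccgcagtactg
MT-ND4L and MT-ND4 overlap: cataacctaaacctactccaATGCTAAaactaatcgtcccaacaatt
MT-RNR2 end and MT-TL1 start: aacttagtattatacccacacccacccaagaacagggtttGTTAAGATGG
MT-CYB end and MT-TT: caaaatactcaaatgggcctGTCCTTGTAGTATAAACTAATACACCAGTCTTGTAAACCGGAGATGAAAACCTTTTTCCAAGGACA
MT-ND5 end and MT-ND6 end: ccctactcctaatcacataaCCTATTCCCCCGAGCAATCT

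In 6 of the 13 protein genes the annotated coding sequence ends in an incomplete codon, a T or TA that the poly(A) tail completes into a stop codon. MT-CYB is one of them, and its last base lies next to the first base of MT-TT. Which version of the mitochondrial sequence was part of the genome the reads were mapped to was not given in the sources used here, so the coordinates are those of GRCh37.

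The mitochondrial genes together took 7.03% (95% Wilson interval 7.01 to 7.04%), 6.95% (6.93 to 6.96%) and 8.62% (8.60 to 8.63%) of all counts in GFP replicates 1, 2 and 3. In POU5F1B replicates 1, 2 and 3 they took 7.49% (7.48 to 7.51%), 7.37% (7.35 to 7.38%) and 7.32% (7.31 to 7.34%). The mean was 7.53% ± 0.943 in GFP cells and 7.39% ± 0.0872 in POU5F1B cells (SD, n = 3 each), and the 3 POU5F1B values lay inside the GFP range. These intervals are for counting error alone, because no molecular identifiers were used and several reads may stem from 1 molecule. Against the mean of GFP replicates 1 and 2 alone, 6.99%, the POU5F1B mean was higher by 0.408 percentage points.

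**Figure D1:**
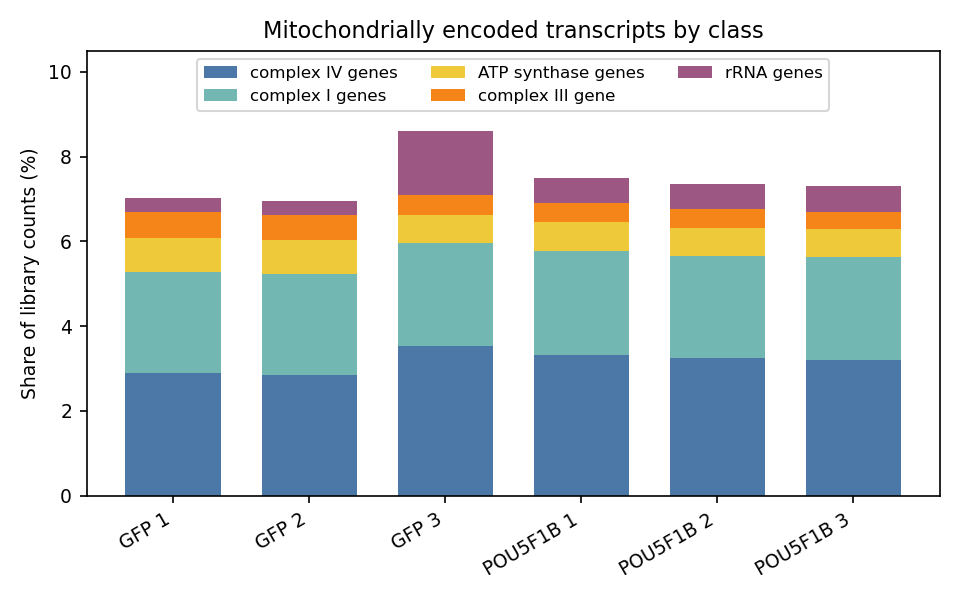
Stacked bars give the percentage of all counts in each library (vertical axis, from 0) taken by mitochondrial genes of complex IV, complex I, ATP synthase, complex III and the rRNAs, for 3 GFP and 3 POU5F1B libraries; the tRNA genes took at most 0.00560% and are not drawn. GFP replicate 3 reaches 8.62% and its rRNA segment is 1.52%, against 0.309 to 0.624% in the other libraries.

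The rRNA genes made up 73.8% of the excess of GFP replicate 3 over the mean of GFP replicates 1 and 2. MT-RNR2, the rRNA of the large mitochondrial ribosomal subunit, took 0.257, 0.255 and 1.40% of the counts in GFP replicates 1, 2 and 3 and 0.462, 0.506 and 0.541% in POU5F1B replicates 1, 2 and 3. GFP replicate 3 was thus the highest library and GFP replicates 1 and 2 the lowest, with the POU5F1B libraries between them. That excess was 1.63 percentage points for all mitochondrial genes, and MT-RNR2 made up 1.15 points or 70.2% of it. With MT-RNR2 set aside, the remaining 36 genes took 7.22% in GFP replicate 3, a mean of 6.73% in GFP replicates 1 and 2 and a mean of 6.89% in POU5F1B cells.

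MT-RNR1, the rRNA of the small subunit, took 0.0741, 0.0545 and 0.123% in GFP replicates 1, 2 and 3 and 0.110, 0.0797 and 0.0833% in the POU5F1B replicates. The groups overlapped, and as with MT-RNR2 the lowest pair of libraries was GFP replicates 1 and 2. The count of MT-RNR2 for each count of MT-RNR1 was 3.47, 4.67 and 11.4 in the GFP replicates and 4.19, 6.35 and 6.49 in the POU5F1B replicates. In the test of POU5F1B against GFP with all 6 libraries (voom and the moderated test of limma, Benjamini-Hochberg adjusted over 14286 genes), MT-RNR2 had a log2 fold change of 0.12 ± 0.66 (SE, adjusted p = 0.962) and MT-RNR1 one of 0.15 ± 0.33 (adjusted p = 0.884). Without GFP replicate 3, MT-RNR2 was higher in POU5F1B cells by 0.96 ± 0.08 on the log2 scale (adjusted p = 0.00168), and MT-RNR1 had 0.50 ± 0.18 (adjusted p = 0.123).

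**Figure D2:**
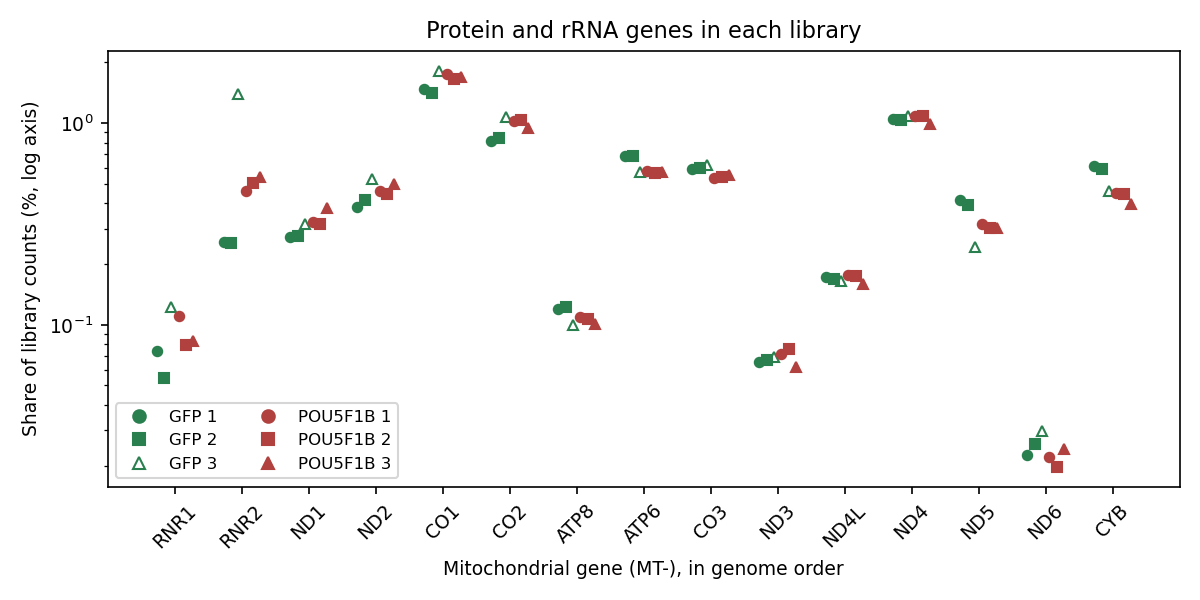
Points give the percentage of library counts (vertical log axis) of the 13 protein and 2 rRNA genes, in genome order from MT-RNR1 to MT-CYB, with GFP libraries in green, POU5F1B libraries in red and GFP replicate 3 as an open triangle. For MT-RNR2 the open triangle lies at 1.40%, far above the other libraries, and for MT-CYB it lies at 0.459%, just above the POU5F1B libraries and below GFP replicates 1 and 2.

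Of the 37 genes, 26 had enough counts to be tested, namely all 13 protein genes, both rRNA genes and 11 of the 22 tRNA genes. In the main fit (limma, all 6 libraries, no sample quality weights), 0 of the 26 had an adjusted p under 0.05, where 0% of all 14286 tested genes did. POU5F1B itself, with the counts given above, thus did not pass either. A high adjusted p in the main fit therefore does not show that a gene was unchanged. At an unadjusted p under 0.05 there were 3 of the 26, against 11.9% of all tested genes, and these 3 were MT-TT, MT-CYB and MT-ATP6. Tested with edgeR (quasi-likelihood) or DESeq2 (Wald), 0 mitochondrial genes had an adjusted p under 0.05, against 0% and 2.88% of all tested genes, and 2 had an unadjusted p under 0.05 with each tool, against 12% and 13.5%. Without GFP replicate 3, 8 of the 26 genes, or 30.8%, had an adjusted p under 0.05, where 12.1% of all tested genes did. Of these 8, 5 were higher in POU5F1B cells, where 5.07% of all tested genes were, and 3 were lower, where 7.02% were. Each protein gene had at least 2128 counts in every library, and small shifts pass more easily at high counts. The shares were not compared at equal counts. With sample quality weights 11 of the 26 passed, or 42.3%, against 27.8% of all tested genes. The weights were 1.74, 2.79 and 0.111 for GFP replicates 1, 2 and 3 and 2.62, 1.23 and 0.575 for the POU5F1B replicates. That fit keeps all 6 libraries but nearly leaves out GFP replicate 3, so it is not separate from the fit without it. With replicates 1 and 2 of each group only, 12 passed, or 46.2%, against 29.7%. In the fit without GFP replicate 3, 0 of the 26 also changed more than 2-fold, where 4.16% of all tested genes did. The epithelial and fibroblast marker sums given above divide the libraries in the same way as leaving out GFP replicate 3 does, and their part in these differences was not tested.

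The proteins of complex I, the NADH dehydrogenase that feeds electrons into the respiratory chain, come from 7 mitochondrial genes, which together took 2.38 to 2.44% of counts in GFP libraries and a mean of 2.43% ± 0.0219 in POU5F1B cells (SD, n = 3). MT-ND1, the first protein gene after the rRNAs, took 0.271, 0.276 and 0.316% in the GFP replicates and 0.323, 0.317 and 0.381% in the POU5F1B replicates. Each POU5F1B library was above each GFP library in share, by a narrow margin at GFP replicate 3, while after scaling of library sizes that replicate overlapped the POU5F1B values. The log2 fold change was 0.20 ± 0.13 (SE, limma adjusted p = 0.568) with all libraries and 0.30 ± 0.08 (adjusted p = 0.0612) without GFP replicate 3.

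MT-ND5, the largest protein gene of the genome, took 0.416, 0.392 and 0.242% in GFP replicates 1, 2 and 3 and 0.315, 0.301 and 0.300% in the POU5F1B replicates. GFP replicate 3 was the lowest of the 6 libraries, below all POU5F1B libraries, and GFP replicates 1 and 2 were the highest. The log2 fold change was -0.20 ± 0.18 (limma adjusted p = 0.686) with all libraries, and without GFP replicate 3 MT-ND5 was lower in POU5F1B cells at -0.41 ± 0.07 (adjusted p = 0.0128).

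The other complex I genes had adjusted p-values above 0.05 in both fits. MT-ND2 took 0.383 to 0.531% in GFP and 0.446 to 0.500% in POU5F1B libraries, with log2 fold changes of 0.05 with all libraries and 0.22 without GFP replicate 3 (limma adjusted p = 0.929 and 0.0747). MT-ND3, MT-ND4L and MT-ND4 had log2 fold changes between -0.04 and 0.07 in both fits. MT-ND4L and MT-ND4 sit on 1 bicistronic mRNA, overlapping in the 7 bases printed above, and the count of MT-ND4L for each count of MT-ND4 was 0.153 to 0.164 in all 6 libraries. MT-ND6, read from the opposite strand, took 0.0226, 0.0258 and 0.0296% in the GFP replicates and 0.0220, 0.0198 and 0.0242% in the POU5F1B replicates. The MT-ND6 groups overlapped, and the log2 fold change was -0.28 ± 0.15 (adjusted p = 0.523).

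MT-CYB, cytochrome b of complex III, took 0.615, 0.596 and 0.459% in GFP replicates 1, 2 and 3 and 0.453, 0.448 and 0.395% in POU5F1B replicates 1, 2 and 3. All 3 POU5F1B values lay below all 3 GFP values, and GFP replicate 3 was much closer to the POU5F1B values than to the other GFP replicates. The log2 fold change was -0.40 ± 0.12 (SE, limma adjusted p = 0.294) with all libraries, and without GFP replicate 3 MT-CYB was lower in POU5F1B cells at -0.50 ± 0.08 (adjusted p = 0.0128).

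Complex IV, cytochrome c oxidase, has its 3 catalytic-core subunits from MT-CO1, MT-CO2 and MT-CO3. MT-CO1, the gene with the most counts, took 1.48, 1.41 and 1.82% in the GFP replicates and 1.76, 1.66 and 1.70% in the POU5F1B replicates. MT-CO2, which holds the copper site that accepts electrons from cytochrome c, took 0.816, 0.840 and 1.08% in the GFP replicates and 1.02, 1.04 and 0.952% in the POU5F1B replicates. For both genes GFP replicate 3 was the highest library and GFP replicates 1 and 2 were the lowest. With all libraries the log2 fold changes were 0.09 ± 0.14 for MT-CO1 and 0.11 ± 0.15 for MT-CO2 (limma adjusted p = 0.836 and 0.799). Without GFP replicate 3, MT-CO1 was higher in POU5F1B cells by 0.23 ± 0.06 (adjusted p = 0.0439) and MT-CO2 by 0.27 ± 0.06 (adjusted p = 0.0364).

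MT-CO3 took 0.596, 0.600 and 0.622% in the GFP replicates and 0.534, 0.543 and 0.555% in the POU5F1B replicates. The groups did not overlap and GFP replicate 3 lay with the other GFP libraries, yet the log2 fold change of -0.19 ± 0.08 had a limma adjusted p of 0.428 with all libraries and that of -0.15 ± 0.05 one of 0.117 without GFP replicate 3.

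ATP synthase receives the membrane subunits encoded by MT-ATP6 and MT-ATP8, whose reading frames overlap in the 46 bases printed above and lie on 1 mRNA. MT-ATP6 took 0.688, 0.684 and 0.570% in the GFP replicates and 0.582, 0.564 and 0.570% in the POU5F1B replicates. GFP replicate 3 lay inside the POU5F1B range in share, and above it once library sizes were scaled. The log2 fold change was -0.21 ± 0.08 (SE, limma adjusted p = 0.366) with all libraries, and without GFP replicate 3 MT-ATP6 was lower in POU5F1B cells at -0.27 ± 0.05 (adjusted p = 0.0236). MT-ATP8 took 0.0992 to 0.122% in GFP and 0.100 to 0.109% in POU5F1B libraries, with log2 fold changes of -0.14 and -0.21 in the same fits (adjusted p = 0.598 and 0.109). The count of MT-ATP8 for each count of MT-ATP6 stayed between 0.174 and 0.191 in all 6 libraries.

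The tRNA genes took between 0.00314 and 0.00560% of counts. Libraries of polyadenylated RNA retain few tRNAs. MT-TR and MT-TS2 had 0 counts in every library, where 3 counts correspond to 0.229 to 0.278 CPM depending on the library, and 9 of the 22 had at least 10 counts in every library. The 11 that were not tested had at most 12 counts in any library. MT-TL1, the leucine tRNA that follows MT-RNR2, was counted 93, 130 and 207 times in the GFP replicates and 184, 174 and 198 times in the POU5F1B replicates. As with MT-RNR2, GFP replicates 1 and 2 were the lowest, and MT-TL1 was higher in POU5F1B cells by 0.81 ± 0.18 on the log2 scale without GFP replicate 3 (limma adjusted p = 0.0312) but not with all libraries (0.49 ± 0.31, adjusted p = 0.574).

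MT-TT, the threonine tRNA that follows MT-CYB, had counts of 36, 47 and 20 in GFP replicates 1, 2 and 3 and of 82, 62 and 75 in POU5F1B replicates 1, 2 and 3. The groups did not overlap, and GFP replicate 3 was the lowest library, so that it lay away from the POU5F1B libraries and not toward them. The log2 fold change was 1.18 ± 0.30 (SE, limma adjusted p = 0.247) with all libraries and 0.88 ± 0.22 (adjusted p = 0.0472) without GFP replicate 3. For each 1000 counts of its neighbor MT-CYB, MT-TT was counted 0.493, 0.617 and 0.352 times in the GFP replicates and 1.43, 1.29 and 1.62 times in the POU5F1B replicates. MT-TQ, the glutamine tRNA, had 44 to 73 counts in GFP and 47 to 54 in POU5F1B libraries, and MT-TP, the proline tRNA, had 34 to 56 and 44 to 78. Both of these groups overlapped, with log2 fold changes of -0.21 ± 0.27 for MT-TQ and 0.41 ± 0.32 for MT-TP (adjusted p = 0.794 and 0.652).

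A read across the border printed above for MT-RNR2 and MT-TL1 or for MT-CYB and MT-TT can be given to either gene or to neither, and the rule for such reads was not stated. How such reads were assigned was not tested.

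**Figure D3:**
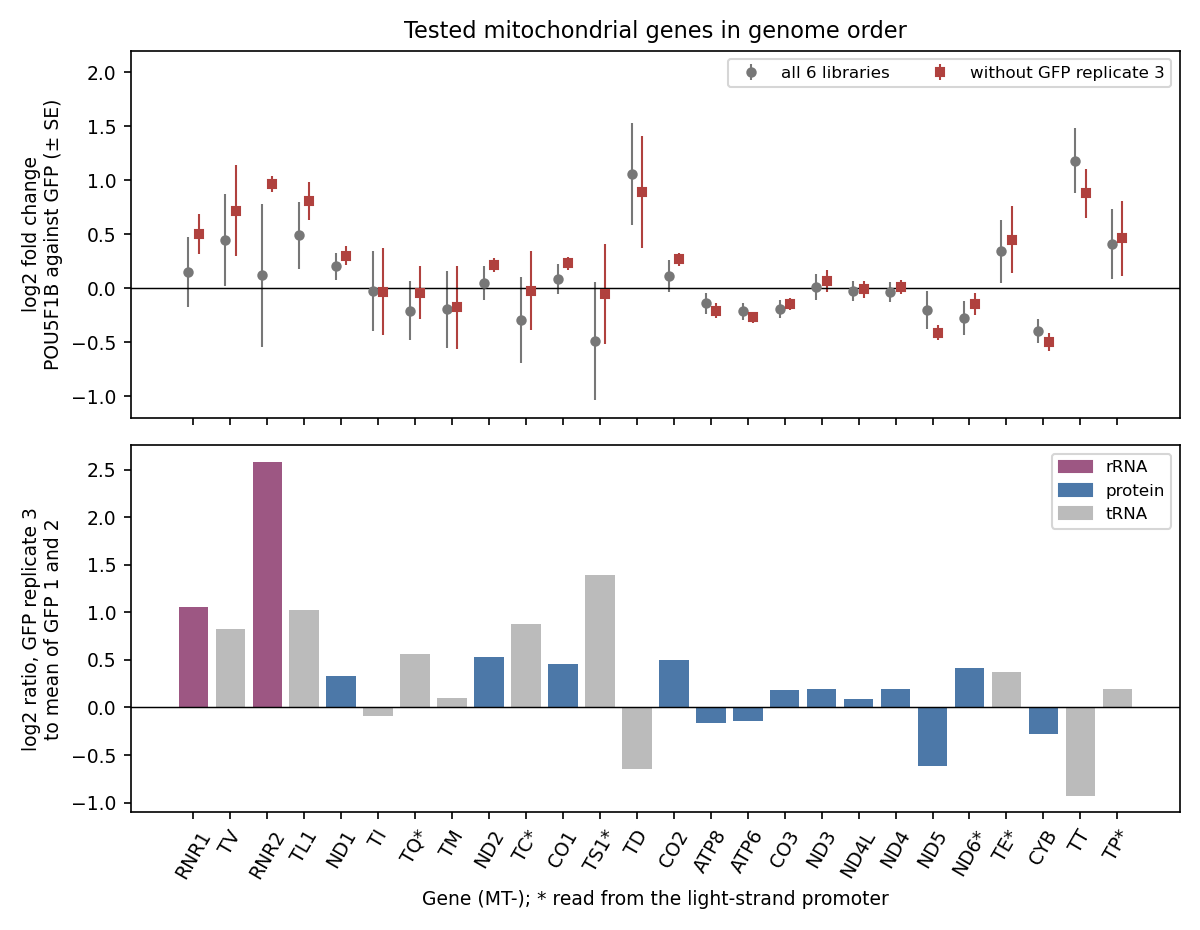
The upper panel gives, for the 26 tested genes in genome order, the log2 fold change of POU5F1B against GFP with its SE, in gray for all 6 libraries and in red without GFP replicate 3. The lower panel gives the log2 ratio of GFP replicate 3 to the mean of GFP replicates 1 and 2 on the CPM scale, with bars colored by gene type; both panels use GFP replicates 1 and 2, and MT-RNR2 has the tallest bar at 2.58.

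Arranged along the genome, the genes nearer the heavy-strand promoters tended to have the higher fold changes and those farther away the lower ones. Over the 14 protein and rRNA genes read from the heavy strand, Spearman's rho between gene order and limma log2 fold change was -0.84 without GFP replicate 3 and -0.82 with all libraries. This is a description across 14 genes, which share libraries, precursor transcripts and scaling and are not independent replicates. The order with all libraries depended on the tool. MT-RNR2, second in gene order, had 0.12 in limma but -0.43 in edgeR and -0.41 in DESeq2, the lowest of the 14 genes in the latter 2. There MT-CYB had -0.40 with each tool, and rho was not computed for these tools. Without GFP replicate 3, the 5 genes from MT-RNR1 to MT-CO1 in that order had log2 fold changes of 0.50, 0.96, 0.30, 0.22 and 0.23, and MT-ND5 and MT-CYB, at the far end, had -0.41 and -0.50. MT-CO2 at 0.27 stood next to MT-ATP8 at -0.21, so that the change of sign fell between those 2 neighbors, whereas MT-ND3, MT-ND4L and MT-ND4, farther on, had 0.07, -0.01 and 0.01.

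GFP replicate 3 is described by its CPM level as a fold of the mean of GFP replicates 1 and 2, which was 2.08 for MT-RNR1, 5.98 for MT-RNR2, 1.26 for MT-ND1, 1.45 for MT-ND2, 1.38 for MT-CO1 and 1.42 for MT-CO2. At the far end it was 0.654 for MT-ND5 and 0.827 for MT-CYB. The corresponding folds of the POU5F1B mean were 1.42, 1.97, 1.25, 1.17, 1.18 and 1.22 for the first 6 of these genes, in the same order, and 0.757 for MT-ND5 and 0.715 for MT-CYB. Both sets of folds are taken against the same GFP replicates 1 and 2, so they are not independent and were not tested against each other.

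Counted by overlap of CPM values, 4 of the 26 tested genes, or 15.4%, had groups that did not overlap with all 6 libraries, against 19.4% of all tested genes. These were MT-TT, higher in POU5F1B cells, and MT-ATP6, MT-CO3 and MT-CYB, lower in them. With that library left out there were 14 of 26, or 53.8%, against 48.8% of all tested genes, with 9 higher (24.9% of all tested genes) and 5 lower (23.9%). The share of non-overlapping genes was therefore close to the background in both cases. Of the 14 genes, 11 were protein or rRNA genes. For 10 of these 11, GFP replicate 3 lay beyond GFP replicates 1 and 2 on the POU5F1B side, and for MT-CO3 it did not. How often this held among all tested genes was not counted, so the 10 of 11 have no background. The 11 were chosen by their values in GFP replicates 1 and 2, the same libraries that GFP replicate 3 is compared with.

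**Figure D4:**
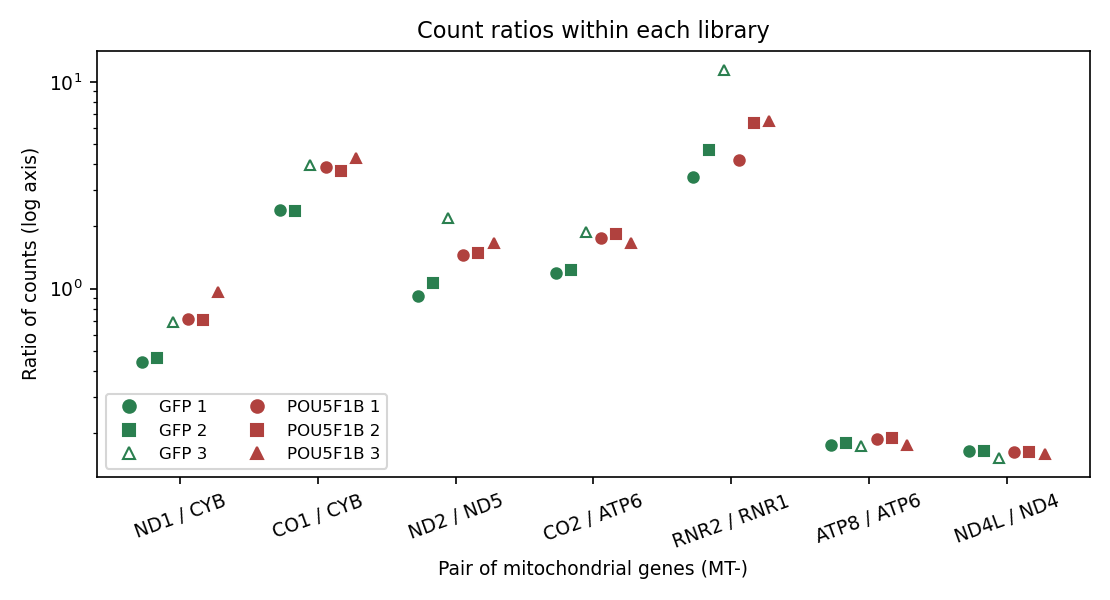
Each point is the ratio of the counts of a pair of mitochondrial genes in 1 library (vertical log axis), with GFP in green, POU5F1B in red and GFP replicate 3 as an open triangle. The ratios of MT-ND1 or MT-CO1 to MT-CYB place GFP replicate 3 with the POU5F1B libraries, MT-RNR2 to MT-RNR1 places it above all, and the overlapping pairs MT-ATP8 to MT-ATP6 and MT-ND4L to MT-ND4 vary little.

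Ratios of genes within a library do not depend on its depth or scaling, and the pairs shown were chosen after the values were seen, so none was tested. The count of MT-ND1 for each count of MT-CYB was 0.441, 0.463 and 0.688 in GFP replicates 1, 2 and 3 and 0.712, 0.708 and 0.964 in POU5F1B replicates 1, 2 and 3. MT-CO1 to MT-CYB was 2.40, 2.37 and 3.97 in the GFP replicates and 3.88, 3.70 and 4.30 in the POU5F1B replicates. GFP replicate 3 thus lay close to or within the POU5F1B range for both, and GFP replicates 1 and 2 lay apart from the other 4 libraries. For MT-ND2 to MT-ND5, with 0.922, 1.06 and 2.19 in the GFP replicates and 1.46, 1.48 and 1.66 in the POU5F1B replicates, GFP replicate 3 lay beyond the POU5F1B libraries. For MT-CO2 to MT-ATP6 the values were 1.19, 1.23 and 1.89 in the GFP replicates and 1.76, 1.84 and 1.67 in the POU5F1B replicates.

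The 9 genes read from the light-strand promoter, MT-ND6 and 8 tRNAs, took a small part of mitochondrial counts. It was 0.339, 0.393 and 0.365% in GFP replicates 1, 2 and 3 and 0.310, 0.289 and 0.357% in the POU5F1B replicates, so that the groups overlapped. The means were 0.366% ± 0.0271 and 0.319% ± 0.0349 (SD, n = 3 each), and GFP replicate 3 lay between the other GFP replicates. The strand setting of the counting was not stated, so reads of the heavy-strand precursor across these genes cannot be told apart from their own. These are shares in polyadenylated RNA, and how fully MT-ND6 was captured in it was not tested.

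Per length, the counts of the genes differed widely although the heavy-strand genes share their precursors. MT-ATP8 and MT-ATP6 lie on 1 mRNA, as do MT-ND4L and MT-ND4, yet the values within each pair differed. The ranking thus concerns counts per length and not transcript amounts alone. The rule for reads in the shared bases was not stated. In RPKM, the count per length scaled to a common library size, averaged over the 6 libraries, MT-CO2 had the highest level at 13995 ± 1578 (SD, n = 6), followed by MT-CO1 at 10624 ± 1041, MT-ATP6 at 8952 ± 874, MT-ND4 at 7661 ± 272 and MT-CO3 at 7333 ± 454. The spreads of MT-CO1 and MT-ATP6 overlapped, as did those of MT-ND4 and MT-CO3. MT-ATP6, at 10100 and 10050, was above MT-CO1, at 9590 and 9162, in GFP replicates 1 and 2, and below it in the other 4 libraries. MT-ND4L at 5714 ± 232, MT-ATP8 at 5308 ± 470, MT-ND2 at 4380 ± 516 and MT-CYB at 4333 ± 782 came next, and in each of these 2 pairs of neighbors the spreads overlapped. Of the protein genes, MT-ND1 at 3284 ± 416, MT-ND3 at 1978 ± 143, MT-ND5 at 1809 ± 356 and MT-ND6 at 457 ± 65.2 had the lowest means. The spreads of MT-ND3 and MT-ND5 overlapped. So did those of MT-ATP8 with MT-ND2 and with MT-CYB, and those of MT-CYB with MT-ND1. In POU5F1B replicate 3, MT-ND1 at 3989 was above MT-CYB at 3466. MT-RNR2 at 3659 ± 2731 and MT-RNR1 at 917 ± 262 are levels in polyadenylated RNA, which holds little of the rRNA of a cell.

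Copies of mitochondrial sequence in the nuclear genome can take reads from these genes, because only uniquely mapped reads were counted. On GRCh37 a stretch at chr1:564461-570304 aligned to positions 3911 to 9755 of the mitochondrial chromosome with 98.5% identity, which spans MT-ND2, MT-CO1, MT-CO2, MT-ATP8 and MT-ATP6 entirely. Of the 50-base words of MT-CO1, 50.6% also occurred in the nuclear genome, as did 48.3% of those of MT-ATP6 and 43.6% of those of MT-ND2 and of MT-RNR1, against 15.7% for MT-RNR2, 4.76% for MT-ND5, 1.65% for MT-CYB and 0% for MT-ND3. For 7 of the 22 tRNA genes, MT-TQ among them, every 50-base word did. The part of such lost reads in the values above was not tested.

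The 394 annotated nuclear copies summed to 2186 to 3913 counts per library, which was 0.255 to 0.367% of the mitochondrial counts, and 7 of them were tested. The counts of MTCO3P12 were 1533, 1783 and 1621 in GFP replicates and 1408, 1144 and 1215 in POU5F1B replicates. Those of MTCO1P12 were 610, 806 and 1957 in GFP replicates and 688, 688 and 936 in POU5F1B replicates. MTCO1P12 was highest in GFP replicate 3, like MT-CO1. With all libraries 0 of the 7 had an adjusted p under 0.05 in the limma fit and 1 had an unadjusted p under 0.05; without GFP replicate 3, MTCO3P12 was lower in POU5F1B cells at -0.33 ± 0.09 (adjusted p = 0.0493). MTND2P28 had 89 to 170 counts and MTND4P12 had 86 to 148 counts, the other 2 of the 4 most abundant copies.

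Nuclear genes that transcribe, process, stabilize and translate mitochondrial RNA were examined as a list of 142, of which 138 were tested. With all 6 libraries 0 of the 138 had an adjusted p under 0.05 in the limma fit, 6 (4.35%) had an unadjusted p under 0.05, against 11.9% of all tested genes, and their median log2 fold change was 0.01, against -0.02 for all tested genes. Without GFP replicate 3, 17 of the 138, or 12.3%, had an adjusted p under 0.05, close to the 12.1% of all tested genes, and all 17 were higher in POU5F1B cells, where 5.07% of all tested genes were. The median was then 0.13, against -0.01 for all tested genes.

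TFB2M, the transcription factor that opens the mitochondrial promoters with POLRMT, had 21.2, 24.4 and 35.8 CPM in the GFP replicates and 33.6, 32.6 and 33.1 CPM in the POU5F1B replicates. The values of GFP replicate 3 were the highest and those of GFP replicates 1 and 2 the lowest. LRPPRC, which stabilizes mitochondrial mRNAs and aids their polyadenylation, was also among the 17, as was PNPT1, a subunit of the mitochondrial RNA degradation complex named here after its values were seen. Their log2 fold changes without GFP replicate 3 were 0.53 ± 0.12 for TFB2M (limma adjusted p = 0.0365), 0.67 ± 0.11 for LRPPRC (adjusted p = 0.0146) and 0.79 ± 0.10 for PNPT1 (adjusted p = 0.00724). With all libraries they were 0.33 ± 0.21, 0.16 ± 0.42 and 0.21 ± 0.47 in the same order (adjusted p = 0.577, 0.911 and 0.888). GFP replicate 3 was the highest library for LRPPRC, at 559 CPM against 172 to 332 CPM in the others, and for PNPT1, at 198 CPM against 54.2 to 106 CPM. In the fit without GFP replicate 3, the mitochondrial RNA polymerase POLRMT had 0.23 (adjusted p = 0.440), the DNA-packaging and promoter factor TFAM 0.34 (adjusted p = 0.183), the poly(A) polymerase MTPAP 0.31 (adjusted p = 0.186) and the helicase TWNK 0.25 (adjusted p = 0.234), and these 4 did not pass. With all libraries they had -0.06, -0.01, -0.05 and 0.12, also not passing. In GFP replicate 3, POLRMT had 77.5 CPM and TFAM 134 CPM, above the 38.5 to 58.9 CPM and 56.4 to 94.7 CPM of the other 5 libraries.

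By role, the 17 genes included 1 of 9 tested genes of mitochondrial transcription, 4 of 16 of RNA processing and modification, 3 of 12 of polyadenylation, stability and decay, 1 of 11 of DNA replication and packaging, 0 of 5 regulators of mitochondrial biogenesis, 0 of 11 translation factors and 8 of 74 mitochondrial ribosomal proteins. TBRG4, a protein that binds and stabilizes mitochondrial mRNAs, had a log2 fold change of 0.53 without GFP replicate 3 (limma adjusted p = 0.0154), MRM2, which methylates the large-subunit rRNA, 0.37 (adjusted p = 0.0400), RNASEH1, which removes RNA from RNA-DNA hybrids, 0.61 (adjusted p = 0.0178), and MRPS18B, a ribosomal protein, 0.36 (adjusted p = 0.0431). With all libraries the same 4 genes had 0.42, 0.34, 0.53 and 0.31, with adjusted p = 0.317, 0.308, 0.254 and 0.352. The other genes with the 1 or 2 smallest p-values of their lists were, with all libraries, PTCD1 and SLIRP, which bind mitochondrial RNA, at -0.38 and -0.32, the transcript elongation factor TEFM at -0.30, the nuclease MGME1 at 0.19, the coactivators PPARGC1B and PPRC1 at -0.20 and 0.12, the translation factors MTIF3 and TSFM at -0.51 and 0.23, and the ribosomal protein MRPL14 at 0.34, and none of these passed in either fit.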

How the data were processed

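Stranded poly(A) libraries of 3 GFP and 3 POU5F1B samples, grouped by their titles, were analyzed. The authors deposited raw counts per gene for each library, made by mapping to hg19 with HISAT2 and counting uniquely mapped reads with featureCounts over genes and transposable elements. The strand setting and annotation release were not given in the sources used here. Depth was 10767947 to 12787637 counts, so a share of all counts has a narrow counting error, while most tRNA genes do not have the counts to show a change.

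The filterByExpr function of edgeR 4.0.16 kept 14286 genes, which were scaled by TMM and tested with voom and limma 3.58.1 in R 4.3.3 with Benjamini-Hochberg adjustment over all of them, as the study's methods state. A gene past the threshold had a fold change over 2 besides its adjusted p under 0.05. CPM used TMM-scaled library sizes. Alternatives were edgeR's quasi-likelihood test, DESeq2 1.42.0, sample quality weights, 4 other scalings, 2 other filters, a replicate block, leaving out each library, and replicates 1 and 2 only. Scripts were tested on simulated data.

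Sequences and gene positions came from GRCh37 with a GENCODE annotation lifted to it, and words shared with the nuclear genome from blastn 2.17.0. Of 89 entries in the hand-written gene lists, 87 were found, and 77 mitochondrial ribosomal proteins were taken by symbol. Named genes were all protein and rRNA genes, the 4 tRNA genes with the highest mean share, 6 nuclear genes (POLRMT, TFAM, TFB2M, LRPPRC, MTPAP and TWNK) with the 2 of smallest p in each list, and the 4 nuclear copies with the most counts. The members and lists were chosen with earlier results of these data known.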

Additional observations from a re-analysis of the deposited data

How the results depend on the processing

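With all 6 libraries and no sample quality weights, 0 mitochondrial genes had an adjusted p under 0.05 in limma, edgeR and DESeq2, under every scaling and filter tried. The count was 11 with sample quality weights (27.8% of all tested genes) and 12 with replicates 1 and 2 only (29.7%), and 0 to 8 when each library was left out, where the 8 came without GFP replicate 3. The count of genes past the threshold of 2-fold was 0 when any library was left out. For the 138 nuclear genes of the mitochondrial RNA machinery the count was 1 in DESeq2 (0.725%, against 2.88% of all tested genes). It was 26 with quality weights (18.8%, against 27.8%) and 28 with replicates 1 and 2 only (20.3%, against 29.7%), each below the share of all tested genes. Leaving out each library gave 0 to 17, where the 17 came without GFP replicate 3 (12.3%, against 12.1%). For the 7 tested nuclear copies it was 1 (14.3%) with quality weights and 1 (14.3%) with replicates 1 and 2 only, against the same 27.8% and 29.7%. It was 0 to 1 with each library left out. The settings for these last counts were added after seeing the data.

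Of 323 single-gene values, for 19 genes under 17 settings, 302 kept direction and stayed short of the threshold of an adjusted p under 0.05 with a 2-fold change, and 21 turned direction. At an adjusted p under 0.05 alone, which 0 of the 19 genes met in the main fit, 31 of the 323 values passed. Of these, 8 came without GFP replicate 3, 11 with quality weights, where that library weighed 0.111, and 12 with replicates 1 and 2 only. Each of these settings leaves out or weighs down GFP replicate 3. MT-RNR2 turned to -0.43 in edgeR and -0.41 in DESeq2, and ranged from -0.31 to 0.96 when each library was left out. MT-ND4L turned to 0.048 with quality weights, 0.052 with replicates 1 and 2 only, 0.023 with upper-quartile scaling and 0.013 with total counts, and MT-ND4 to 0.059, 0.064 and 0.010 under the first 3 of these. Leaving out each library gave -0.13 to 0.50 for MT-RNR1, -0.058 to 0.22 for MT-ND2, -0.056 to 0.11 for MT-ND3, -0.059 to 0.043 for MT-ND4L and -0.069 to 0.020 for MT-ND4. The cause of these turns was not tested. The difference in total share, POU5F1B minus GFP, ranged from -0.428 to 0.408 percentage points, and that in the light-strand share from -0.0658 to -0.0318.

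The correlation of deviations between libraries of the same replicate number was 0.242, 0.0883 and 0.165, all positive. Of the 3 GFP libraries, 2 correlated best with their own number. These values do not settle whether the numbers pair the libraries. The main fit left them unpaired, and the replicate block was run as an alternative. With the replicate block 0 mitochondrial genes had an adjusted p under 0.05, and MT-RNR2 turned to -0.000338. The counts of the 11 untested tRNA genes, at most 12, limit what can be seen of them.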
